A study of Caenorhabditis elegans with 2 samples.

Results

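The 10 genes described here encode the heat shock transcription factor of the nematode Caenorhabditis elegans, its inhibitor and a set of molecular chaperones, and they were examined for regions recovered with the protein C08G9.2 near their starts. They were chosen by name (hsf-1, hsb-1, hsp-90, hsp-1, hsp-110, hsp-70, hsp-6, hsp-60, bag-1 and dnj-13) from 19973 protein-coding genes, and all 10 were found in the gene models. C08G9.2 was profiled by chromatin immunoprecipitation with sequencing (ChIP-seq), which records the stretches of genome that come down with a protein. There was 1 group with 2 biological replicates, both from whole hermaphrodite late embryos of strain OP513, genotype unc-119(tm4063) III; wgIs513, collected 5 hours after synchronization by egg bleaching. The transgene wgIs513 encodes C08G9.2 with a GFP-FLAG tag at its C terminus, and an antibody against GFP was used. The labels give each replicate a biosample of its own, both from this 1 transgenic line, and the tissue in which a region was bound cannot be told from whole embryos. The labels name a possible control experiment, which was not analysed here. No untagged worms, heat shock or other treatment are compared, so the results describe positions and levels within 1 condition.

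Heat shock factor is the transcription factor that switches on chaperone genes when proteins misfold, and HSB-1 is a small protein that binds and restrains it. Its sites, the heat shock elements, are short repeats of GAA and its complement TTC in alternating directions. HSP70 proteins bind exposed hydrophobic stretches of client proteins, J-domain proteins deliver clients to them, and nucleotide exchange factors such as BAG-1 and HSP-110 release them. HSP90 finishes the folding of kinases, receptors and other clients. HSP-6 is the mitochondrial HSP70 and HSP-60 the mitochondrial chaperonin, so the set is wider than the cytosol.

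Of the 10 genes, 5 had a summit of the thresholded list within 1000 bp of the gene start, against 5.6% of all protein-coding genes. They were bag-1, hsp-90, hsp-60, dnj-13 and hsp-1. The thresholded list holds the 1416 regions that the authors kept after comparing how the replicates rank regions (irreproducible discovery rate, IDR), and its lowest signal is 97.0. Signal is the authors' own value per region on an unstated scale, so it is ranked only within its list, with rank 1 the highest. A further 3 genes, hsp-6, hsf-1 and hsp-110, had weaker regions in the pooled list of 30000 regions, and hsp-70 and hsb-1 had none there. A pooled summit thus lay at 8 of 10 members, against 46.7% of protein-coding genes. In the replicate lists the count was 9 of 10 in each, against 45.4% of genes in replicate 1 and 46.9% in replicate 2. Among the 1416 regions of highest signal in each replicate, the same 5 genes were found in both, against 5.45% of genes in replicate 1 and 5.55% in replicate 2. Over the genes with a pooled summit, the median best signal was 154 for the 8 members and 43.7 for the 9337 genes of the whole set. The members were picked with earlier results of these data known, so the counts are given as a description with no test.

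**Figure D1:**
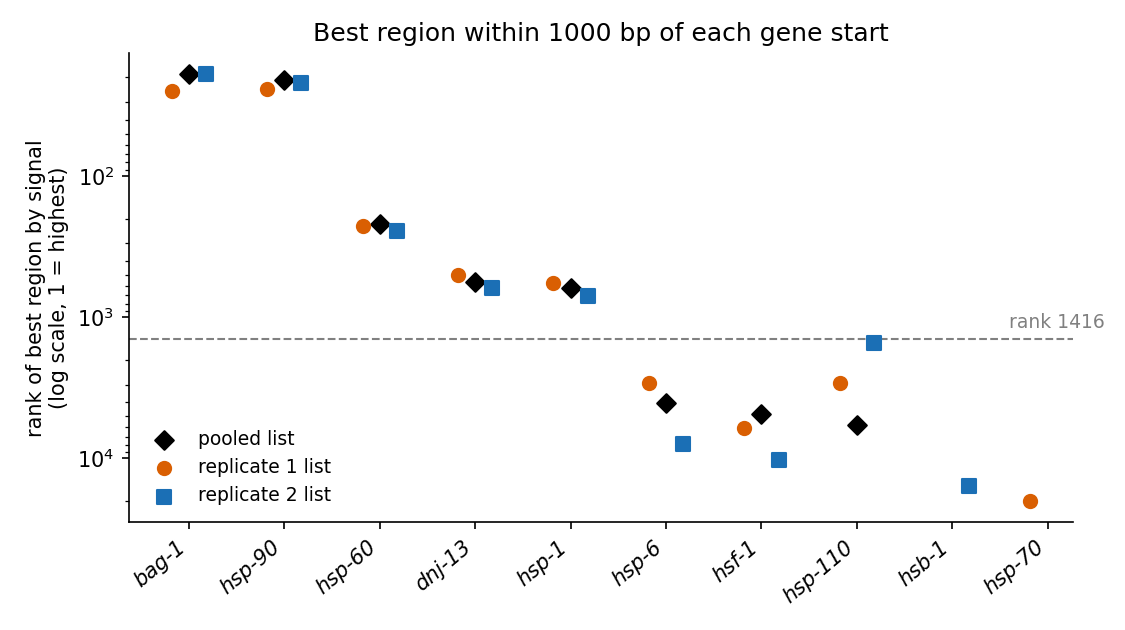
Rank of the best region within 1000 bp of each gene start (log axis, 1 at the top) in the pooled, replicate 1 and replicate 2 lists, with a dashed line at rank 1416, the size of the thresholded list. For bag-1, hsp-90, hsp-60, dnj-13 and hsp-1 all 3 points lie above the line, and for the other genes every point drawn lies below it; a missing point means no region in that list.

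The regions at hsp-90, hsp-1, hsp-60 and dnj-13 are shown from 100 bases before to 100 bases after their pooled summits, because the letters beside the summits differ between the genes in a way the signal does not show. The sequences are from the RefSeq WBcel235 genome, the assembly of the ce11 lists, and read along the strand of each gene. Capitals mark the heat shock dimers GAANNTTC and TTCNNGAA, the 6-letter run GCGCTC and the 9-letter run TTTTCGTCG, each searched on both strands, and marks may overlap.
hsp-1 (chrIV:17278486-17278686, plus strand): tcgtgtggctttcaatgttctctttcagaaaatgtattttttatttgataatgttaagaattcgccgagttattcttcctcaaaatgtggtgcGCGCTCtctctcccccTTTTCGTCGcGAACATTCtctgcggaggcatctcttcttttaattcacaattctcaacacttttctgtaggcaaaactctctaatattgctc
hsp-90 (chrV:14685655-14685855, plus strand): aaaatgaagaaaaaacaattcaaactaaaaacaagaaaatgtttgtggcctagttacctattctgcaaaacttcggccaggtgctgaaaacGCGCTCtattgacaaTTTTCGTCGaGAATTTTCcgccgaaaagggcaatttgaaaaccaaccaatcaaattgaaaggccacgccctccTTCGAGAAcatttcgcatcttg
hsp-60 (chrIII:1619018-1619218, plus strand): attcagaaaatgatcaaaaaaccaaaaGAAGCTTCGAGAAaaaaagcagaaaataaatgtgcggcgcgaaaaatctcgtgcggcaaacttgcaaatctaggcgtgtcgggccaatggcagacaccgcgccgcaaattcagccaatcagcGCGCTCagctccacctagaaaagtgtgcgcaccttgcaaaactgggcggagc
dnj-13 (chrII:11545375-11545575, plus strand): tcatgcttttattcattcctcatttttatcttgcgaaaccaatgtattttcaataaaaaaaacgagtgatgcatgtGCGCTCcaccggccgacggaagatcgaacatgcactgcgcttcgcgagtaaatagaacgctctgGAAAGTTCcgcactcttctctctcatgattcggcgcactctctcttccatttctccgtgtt

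The hsp-1 and hsp-90 regions carried the same arrangement within 30 bases of their summits. In both, the run GCGCTC lay just before the summit, and the run TTTTCGTCG followed it and was separated by 1 base from a GAANNTTC dimer. The 9-letter run was the longest exact match between any pair of these 4 regions within 50 bases to either side of the summit (the central window), whose other pairs shared at most 7 letters. The 9-letter run with the dimer at this spacing, a pattern taken from the hsp-1 and hsp-90 regions, occurred 4 times in the nuclear genome. By that choice 1 was in the hsp-1 region and 1 in the hsp-90 region. The others lay 148 bp from the start of H10D18.5, with no region in any of the 4 lists, and 893 bp from the start of hlh-13, with a region in replicate 2 alone (rank 26460). Alone, the 9-letter run was found in the central window of 5 of 1416 thresholded summits (0.353%) and of 0.213% of other pooled summits. The 5 include hsp-1 and hsp-90, from which the run was taken, so these shares cannot show an excess at thresholded summits. GCGCTC was found in the central window at hsp-1, hsp-90 and dnj-13, which is 3 of the 5 thresholded regions, and 49 bases after the summit at hsp-60, where it ran past that window. Among all thresholded summits 11.7% held GCGCTC in the central window, against 3.11% of other pooled summits and 1.59% of windows of that length centred 500 bp to either side of thresholded summits. At dnj-13 it lay before the summit with a GAANNTTC dimer after it, as at hsp-1 and hsp-90, but without the 9-letter run. The bag-1 region, which has the highest signal of the set, held neither run within 150 bases of its summit, and its sequence is not shown or compared in pairs here. Both runs, and the pattern with its spacing, were chosen after these regions had been read.

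Heat shock elements were searched within 150 bases to either side of the summit. A GAANNTTC dimer was present at all 5 thresholded regions of the set and at 7 of the 8 best pooled regions, with hsf-1 the exception. Over the whole series such a dimer was present at 13.1% of thresholded summits, 16.9% of other pooled summits and 18.6% of promoter windows from 250 bp before to 50 bp after a protein-coding start. The trimer, in which the dimers GAANNTTC and TTCNNGAA overlap, was present at 4 of the 8 best pooled regions (bag-1, hsp-60, hsp-110 and hsp-6). Its share was 2.05% of thresholded summits, 1.49% of other pooled summits and 1.98% of promoter windows. A dimer of either order was present at 24.2% of thresholded summits and 29.2% of other pooled summits. In the promoter windows themselves at least 1 dimer of either order was present at 6 of the 10 genes, against 32.6% of all such windows. A trimer was present in the promoter windows of 5 of them (hsp-1, hsp-90, hsp-110, hsp-70 and bag-1), while hsp-60, hsp-6, hsf-1 and hsb-1 had no dimer in theirs. Trimer and region did not go together throughout. At hsp-1 and hsp-90 the promoter window held a trimer and the bases around the summit held none, at hsp-60 and hsp-6 it was the reverse, and hsp-70 had a trimer and no pooled region. Promoter windows were cut at Ensembl starts. The hsp-90 summit lay 837 bp after that start and 405 bp before the RefSeq start, so its window was not the promoter sequence beside the summit. The RefSeq start of hsf-1 also differs. Windows at the RefSeq starts of hsp-90 and hsf-1 were not searched. A match is a description of letters only. Central GC content was 54.5% at hsp-60, 51.5% at dnj-13, 47.5% at hsp-1, 45.5% at bag-1 and 42.6% at hsp-90, against a median of 50.5% over all thresholded summits.

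**Figure D2:**
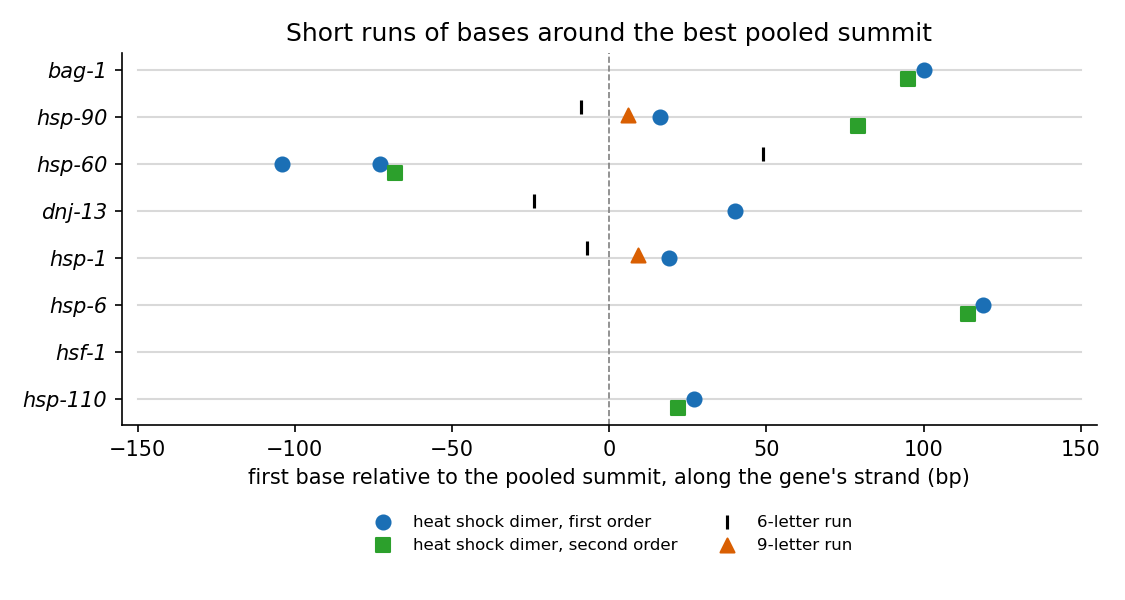
First base of each heat shock dimer (first order GAA then TTC, second order TTC then GAA) and of the 6-letter and 9-letter runs, in bp from the best pooled summit, along the strand of each gene, for the 8 genes with a pooled region. At hsp-1 and hsp-90 the 6-letter run, the 9-letter run and the dimer lie in the same order within 30 bp of the summit; first-order and second-order marks 5 bp apart are trimers.

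The cytosolic HSP90 gene hsp-90 (WBGene00000915, chromosome V, 14684918 to 14688545, plus strand) had the region of rank 21 in the pooled list, with a signal of 587. Its signal was 291 in replicate 1 (rank 24 of 27783) and 300.4 in replicate 2 (rank 22 of 29382). The replicates placed it almost alike, with summits 14 bp apart. The summit lay 837 bp after the start of the Ensembl gene record, in the first intron of a transcript with a distant 5′ exon. It lay 405 bp before the start of the shorter hsp-90 transcript, which is also the RefSeq gene start, and 270 bp before the start of C47E8.4, transcribed the other way and annotated in RefSeq as a FAM50 homolog. The summit thus sat between the shorter hsp-90 transcript and C47E8.4, nearer to the latter. The next thresholded summit was 4625 bp from the hsp-90 start.

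The HSP70 genes fell on both sides of the threshold. The constitutive cytosolic HSP70 gene hsp-1 (WBGene00002005, chromosome IV, 17278959 to 17281330, plus strand) had a thresholded region of signal 149, rank 617, with its summit 373 bp upstream in intergenic sequence. Its signal was 73.0 in replicate 1 (rank 574) and 77.0 in replicate 2 (rank 708), and the summits lay 10 bp apart. No other protein-coding start lay within 1000 bp of this summit, and the ncRNA gene F26D10.23 started 173 bp before it. Weaker pooled regions lay in hsp-1 coding exons, 542 bp (signal 69.3, rank 3418) and 801 bp (signal 65.2, rank 4018) after the start. Replicate 2 had both, at ranks 1547 and 2921, and replicate 1 had 1 region there at rank 9781, so this part of the gene ranked higher in replicate 2. The snoRNA gene F26D10.24 starts 286 bp beyond the second of them.

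The nucleotide exchange factor gene hsp-110 (WBGene00016250, chromosome III, 8443910 to 8446909, minus strand) had 3 pooled regions, of which the best had a signal of 57.0 and rank 5749. It lay 259 bp upstream, 185 bp from the start of the divergent gene rpn-3, which encodes a proteasome regulatory subunit. The others lay in coding exons 41 and 291 bp after the start, at ranks 7903 and 15556. Each replicate had a single region there, of signal 37.2 and rank 2897 in replicate 1 and of signal 53.8 and rank 1525 in replicate 2. Their summits were 273 bp apart, the widest gap of the 8 genes with a pooled region, and the rank 1525 in replicate 2 is just outside the 1416 of highest signal. The 1416 regions of highest signal in replicate 2 ended at 55.4. The replicate 1 summit lay 56 bp after the start, nearest to the pooled summit at 41 bp. The replicate 2 summit lay 217 bp upstream, nearest to the best pooled summit at 259 bp upstream. The gap thus compares replicate regions nearest to different pooled regions, on different sides of the hsp-110 start.

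The mitochondrial pair differed in rank. The mitochondrial chaperonin gene hsp-60 (WBGene00002025, chromosome III, 1619742 to 1625803, plus strand) had a thresholded region of signal 278, rank 219. Its signal was 131 in replicate 1 (rank 225) and 142 in replicate 2 (rank 243), with summits 17 bp apart. The summit lay in intergenic sequence 624 bp upstream of hsp-60 and 189 bp upstream of Y22D7AL.10, a gene on the opposite strand that RefSeq annotates as the mitochondrial heat shock protein of 10 kDa, the co-chaperonin that caps HSP60. The 2 gene starts are 813 bp apart, and Y22D7AL.10 was the nearest protein-coding start. The mitochondrial HSP70 gene hsp-6 (WBGene00002010, chromosome V, 4824124 to 4826760, minus strand) had a pooled region of signal 65.1 and rank 4027, 421 bp upstream. Its signal was 36.998 in replicate 1 (rank 2935) and 29.4 in replicate 2 (rank 7932), both outside the 1416 of highest signal. The divergent gene C37H5.5, annotated as a nucleolar complex protein 3 homolog, started 179 bp from this summit, and the ncRNA genes C37H5.15 and C37H5.16 covered it.

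**Figure D3:**
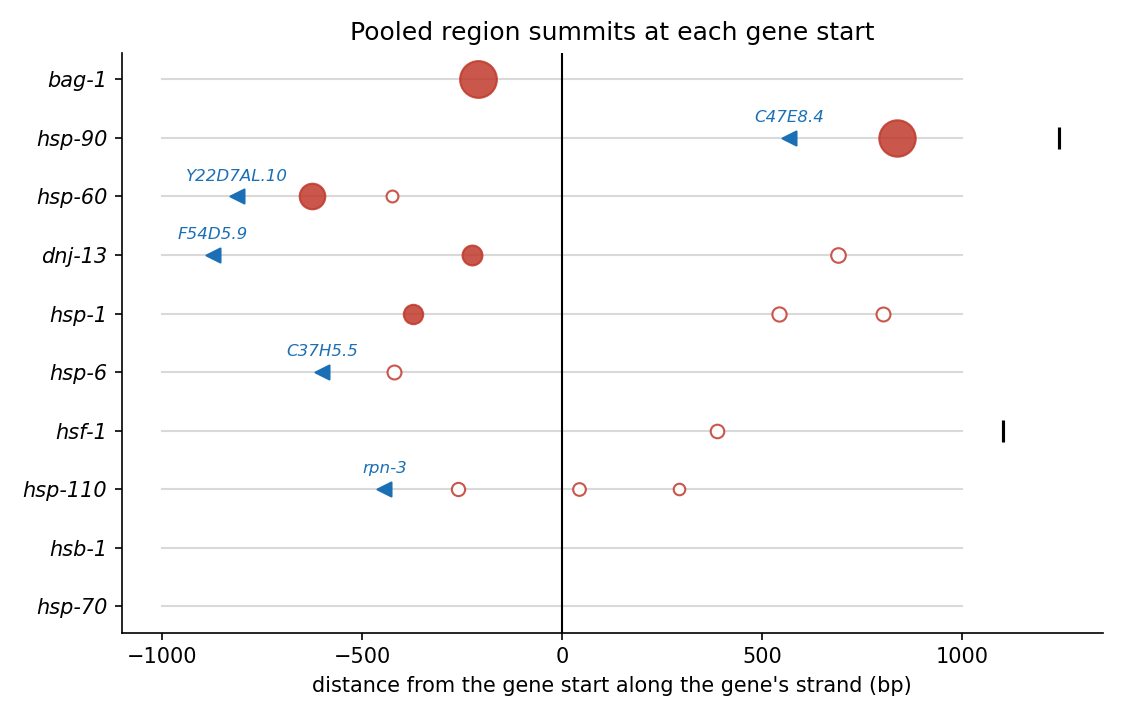
Pooled summits within 1000 bp of each gene start, by distance along the strand of the gene (negative is upstream); circle area grows with signal, filled circles are thresholded regions, blue triangles are other protein-coding starts within 1000 bp of a summit and point along their strand, and black ticks are RefSeq starts that differ from the Ensembl ones. The hsp-90 summit lies between C47E8.4 and the later RefSeq start, and the best summits at hsp-60, hsp-6 and hsp-110 lie between divergent starts, with the other hsp-110 summits 41 and 291 bp inside the gene; hsb-1 and hsp-70 have no pooled summit.

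The J-domain co-chaperone gene dnj-13 (WBGene00001031, chromosome II, 11545701 to 11547360, plus strand) had a thresholded region of signal 158, rank 558, 226 bp upstream. Its signal was 80.1 in replicate 1 (rank 505) and 81.4 in replicate 2 (rank 624), with summits 75 bp apart. The replicate summits thus lay further apart than at hsp-1, hsp-90, hsp-60 or bag-1. The F-box gene F54D5.9 started 647 bp away on the opposite strand, and the ncRNA records named F54D5.22, 1 on each strand, lay under the summit, as did an intron of dhgd-1. A weaker pooled region lay in a coding exon 689 bp after the start (signal 74.3, rank 2824). In replicate 1 this second region ranked 1414, just inside the 1416 of highest signal, and in replicate 2 it ranked 2238.

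The highest signal of the set was at the HSP70 co-chaperone gene bag-1 (WBGene00000236, chromosome I, 6563629 to 6564451, minus strand), with a signal of 599 and rank 19. Its signal was 287 in replicate 1 (rank 25) and 313 in replicate 2 (rank 19). The summits lay 32 bp apart, at 210 and 178 bp upstream in intergenic sequence. There was 1 pooled region at bag-1, as at hsp-90. Unlike the other 4 thresholded regions, that of bag-1 had no other annotated gene start within 1000 bp of its summit. A heat shock trimer began 95 bp after the summit, on the side towards the gene.

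The regulators had weak regions or none. For hsf-1 itself (WBGene00002004, chromosome I, 11953507 to 11963085, minus strand) the best pooled region had a signal of 60.7 and rank 4867. Its signal was 28.8 in replicate 1 (rank 6077) and 26.7 in replicate 2 (rank 10298), with summits 2 bp apart, so position was alike and rank low in both. The summit lay in an intron 387 bp after the Ensembl start and 714 bp before the RefSeq start. The inhibitor gene hsb-1 (WBGene00002002, chromosome IV, 12566092 to 12567226, minus strand) had no pooled region, and a region of signal 22.3 in replicate 2 alone (rank 15583), 646 bp after the start and 597 bp from the start of eak-7. The heat-inducible HSP70 gene hsp-70 (WBGene00002026, chromosome I, 9320325 to 9322519, minus strand) had no pooled region, and a region of signal 17.7 in replicate 1 alone (rank 20019), 114 bp after the start. The nearest thresholded summits to these 3 genes were 27518 to 52270 bp away.

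The 5 thresholded regions ranked close together in the replicates. The worse of both ranks was 1.08 to 1.32 times the better, against a median of 1.45 and quartiles of 1.17 and 2.01 over the 1415 thresholded regions matched in both replicates. At the 3 genes with weaker pooled regions it was 1.69 for hsf-1, 1.9 for hsp-110 and 2.7 for hsp-6. The value for hsp-110 compares replicate regions nearest to different pooled regions. Thresholded regions, those of the set and the 1415 alike, were chosen in part for how alike the replicates rank them, so this closeness is a description. The values for hsp-1 (1.23), dnj-13 (1.24) and bag-1 (1.32) lay between those quartiles, and those for hsp-90 and hsp-60 lay below. All 5 regions were also among the 708 thresholded regions of higher signal, to which the 1415 were not restricted. By level, the order was bag-1, hsp-90, hsp-60, dnj-13, hsp-1, hsp-6, hsf-1 and hsp-110. Replicate 1 put hsp-90 before bag-1 and replicate 2 put bag-1 first, and both replicates put hsp-110 before hsp-6 and hsf-1, where the pooled list put it last. Of the 5 thresholded regions, 3 had a second protein-coding start within 1000 bp, against 35.9% of the 842 thresholded regions with any. With a window of 500 bp, or with each region counted for its nearest protein-coding start only, the count of members fell from 5 to 3, because hsp-90 and hsp-60 dropped out. The loss of hsp-90 at 500 bp depends on the Ensembl gene start, 837 bp from its summit. Its RefSeq start lay 405 bp from the summit.

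Other chaperone genes are given from lists fixed by name, each count being of genes with a thresholded summit within 1000 bp, again against 5.6% of all protein-coding genes. Of 29 J-domain genes 5 had one, namely dnj-28 (signal 374, rank 124), dnj-12 (338, rank 146), dnj-29 (289, rank 196), dnj-9 (130, rank 773) and dnj-14 (112, rank 1023). Of 11 HSP90 and HSP70 co-chaperone genes 2 had one, the activator of HSP90 ATPase gene ahsa-1 (signal 445, rank 80, 226 bp upstream) and unc-23, which encodes a BAG-domain protein (signal 110, rank 1068). Of 6 further HSP70 family genes 3 had one. They were hsp-3, an endoplasmic reticulum HSP70 (signal 113), and F44E5.4 with F44E5.5, adjacent genes that share 1 region (signal 99.2, rank 1344). The best rank at hsp-3 was 509 in replicate 2 and 17360 in replicate 1. Reads from near-identical copies, such as those among the heat-inducible HSP70 and hsp-16 genes, may not be assigned to a single copy, and how they were treated is not given in the sources used here.

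Of 14 small heat shock protein genes 1 had a thresholded summit, hsp-12.3 (signal 99.5), and it lay 981 bp after the start, just inside the window. The best pooled region at the divergent pair hsp-16.2 and hsp-16.41 ranked 5453 (signal 58.1), and neither record named hsp-16.1 had a pooled region. Of 10 genes for mitochondrial chaperones and the mitochondrial unfolded protein response 1 had one, Y22D7AL.10, through the region it shares with hsp-60. Neither of the HSF-1 regulators ddl-1 and ddl-2, whose proteins act with HSB-1, had a pooled region. For comparison, 3 of 8 subunit genes of the cytosolic chaperonin CCT had a thresholded summit (cct-7 at signal 234, cct-2 at 190 and cct-8 at 165), as did 2 of 6 prefoldin genes (pfd-5 at 376 and pfd-4 at 299). No test was made of these differences between lists.

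**Figure D4:**
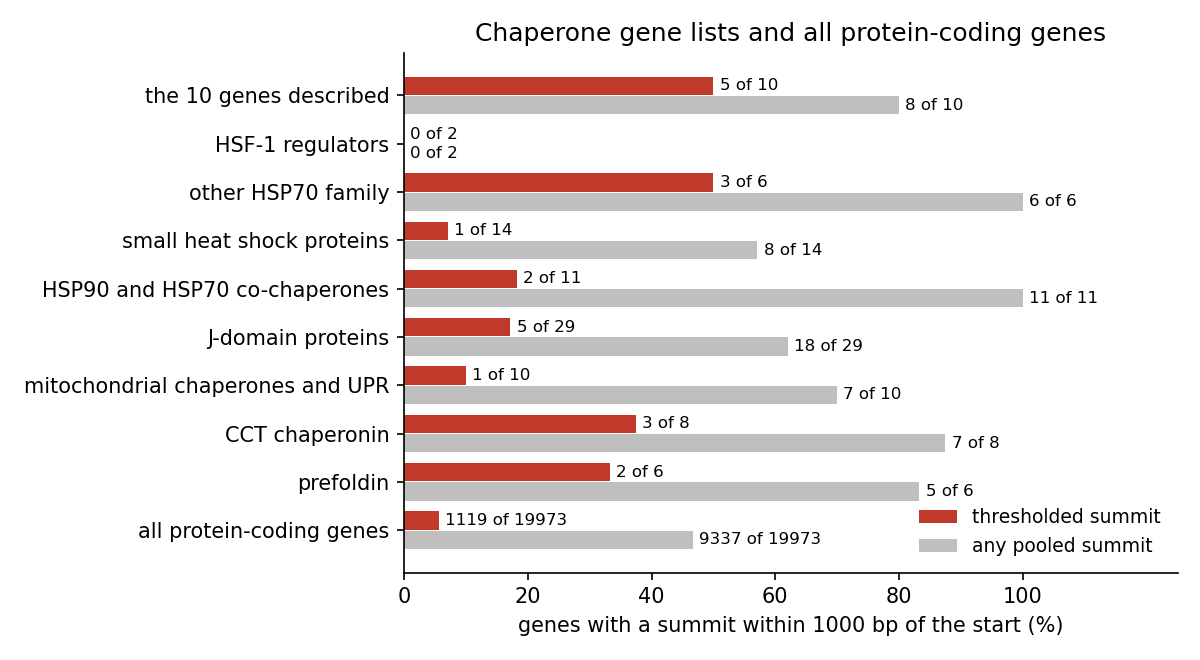
Share of genes with a thresholded summit (red) or any pooled summit (grey) within 1000 bp of the start, for the 10 genes, the other chaperone lists and all protein-coding genes, with counts beside the bars (UPR, unfolded protein response). The thresholded share is 5 of 10 for the genes described and 1 of 14 for small heat shock proteins, against 1119 of 19973 for all genes.

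The genes outside these lists with the most similar ranks over the pooled, replicate 1 and replicate 2 lists were taken as the 3 with the smallest summed difference in log10 rank. For bag-1 they were C47E8.4, through the hsp-90 region, and Y41D4A.4 and Y41D4A.6 (rank 18 for both). For hsp-90 they were pinn-1, a prolyl isomerase gene (rank 23), and F25H9.6 and F25H9.7 (rank 27 for both). For hsp-60 they were bub-1 and lin-61, which share a region of rank 229, and ekl-6 (rank 223). For hsp-1 they were the histone genes his-61 and his-62 (rank 611 for both) and F13C5.2 (rank 615), and for dnj-13 they were F08G2.5 (rank 540), Y48G8AR.8 (rank 574) and yars-2 (rank 525).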

How the data were processed

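Region lists deposited by the authors were analysed here, and reads were not used. Per the names of the deposited lists, those of replicate 1, replicate 2 and the pooled reads hold peaks with background as input for IDR, so weak regions are included, and the thresholded list is the optimal IDR set. The sources used here do not give the aligner, peak caller, settings or IDR threshold. The signal per region is the authors' deposited value on an unstated scale. The lists give no read counts, so depth is unknown here.

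Lists on ce11 were set against Ensembl release 115 gene models of the same assembly, and the ce10 lists were not used. Coordinates are 1-based. A region belonged to a gene when its summit lay within 1000 bp of the 5′ end of the gene record, and a replicate region was matched to a pooled or thresholded region by overlap, taking the nearest summit. Other pooled summits are those of the 28206 pooled regions that overlap no thresholded region.

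The members and gene lists were chosen with earlier results of these data known, so no test was run. The genes named are the members, genes whose starts share their regions, listed genes with a thresholded summit, the 3 genes closest in rank and, chosen after their values were seen, H10D18.5, hlh-13, dhgd-1, ddl-1, ddl-2, hsp-16.1, hsp-16.2 and hsp-16.41. The names hsf-2 and dnj-6 matched no gene record used here. Of 14 names listed for small heat shock proteins 12 matched, some of them to more than 1 record, which gave 14 gene records. Matching was checked on simulated data. Alternatives covered the window, the start, the peak set, the assignment and leaving out each replicate. Calculations used Python 3.11.15, pandas 2.3.3, numpy 2.4.6 and scipy 1.17.1, with figures by matplotlib 3.10.9.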

Additional observations from a re-analysis of the deposited data

How the results depend on the processing

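The count of 5 members with a thresholded summit did not change with a window of 2000 bp, any transcript start, any base of the region in place of its summit, the 708 regions of higher signal, or RefSeq starts, the last chosen after seeing the data. With distances from Ensembl gene starts, it was 3 with a window of 500 bp, 2 with 250 bp and 3 by nearest start only. The share of all protein-coding genes, 5.6% in the main setting, was 4.13%, 2.53% and 4.08% under those 3 settings, and 7.87% with 2000 bp, 6.11% with any transcript start, 6.05% with any base of the region and 3.38% with the 708 regions. Leaving out a replicate, which meant using the 1416 regions of highest signal of the other, gave 5 members either way and 5.45% to 5.55% of genes. The count of 8 members with a pooled summit was 3 with a window of 250 bp, 9 to 9 in the single replicate lists, and 7 or 8 in the other settings. With 500 bp the best pooled rank at hsp-60 went from 219 to 12902. No paired analysis was possible because there is 1 group. Without read counts, absence of a region at hsp-70 or hsb-1 cannot be given a depth.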

Other observations

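The pooled signal was close to the sum of the replicate signals. At 6 of the 8 genes with a pooled region the ratio of pooled signal to that sum was 0.979 to 1.02 (hsp-1, hsp-90, hsp-60, bag-1, dnj-13 and hsp-6). It was 1.09 at hsf-1 and 0.626 at hsp-110, where the replicate summits lay 273 bp apart. The sum at hsp-110 includes a replicate 1 region nearest to the second pooled region (signal 50.2), so 0.626 does not compare like with like. Over the 1415 matched thresholded regions the median ratio was 1, and the range from the 5th to the 95th percentile was 0.946 to 1.06. At hsp-110 the pooled rank, 5749, was worse than the rank in either replicate (2897 and 1525), whose regions lay nearest to different pooled regions.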
